A study of Chlamydomonas reinhardtii with 4 samples.

Results

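Untreated cultures of the unicellular green alga Chlamydomonas reinhardtii were compared at 12 h and at 2 h of a silver nanoparticle (AgNP) experiment, to describe how transcript levels differed with time in cells that received no particles. The genes compared were those whose FPKM averaged 5 or more over the 2 untreated libraries, which gave 3084 of the 17741 genes in the deposited tables. FPKM are fragment counts divided by transcript length and by the size of the library. All cells were wild type of the strain FACHB-1121, grown in TAP, an acetate-containing medium, at 25 °C under 2000 lux with agitation. The groups used were control cells at 2 h, control cells at 12 h, and, for comparison, cells given AgNPs at 0.5 mg/L for 2 h and for 12 h. Each group holds 1 library, so no difference could be set against the spread between cultures, and no test was run. The labels give neither a light-dark cycle nor the time of day of sampling.

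In a green alga the chloroplast makes chlorophyll from glutamate by way of 5-aminolevulinic acid and protoporphyrin, and the insertion of magnesium by Mg-chelatase commits the pathway to chlorophyll. Chlamydomonas cells grow during the G1 phase and then divide several times in quick succession. In cultures synchronised by light and dark, transcripts for chlorophyll synthesis are known to peak early in the light period, and those for DNA replication and cell division near its end.

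Values were compared as the log2 ratio of FPKM + 1, 12 h over 2 h, minus that of the median compared gene. A ratio below 0 is thus lower relative to the median gene, and a gene is counted as higher or lower from 2-fold on. The median gene itself lay at 0.21 (log2) as deposited, and at -0.86 when the libraries were scaled to equal sums. The sum of all FPKM was 492502 at 2 h and 1143199 at 12 h, and 70 cytosolic ribosomal protein genes took 55.3% and 63.5% of these sums. The number of reads per library is unknown. Genes above 0 numbered 15267 at 2 h and 15201 at 12 h. Transcripts of vegetative cells were abundant in both controls, with RBCS2, a Rubisco small subunit gene, at 6328 and 19471 FPKM. Of 12 gamete and zygote genes, FUS1, EZY1, EZY2 and ZYS3 were listed at 0 in both. Only GAS28 (17.7 and 5.08 FPKM) and ZYS4 (9.86 and 21.7) reached the filter. In RNA from a whole culture, a lower level in every cell and fewer cells with the transcript cannot be told apart.

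Of the 3084 genes, 836 (27.1%) lay past 2-fold at 12 h, of which 436 (14.1% of all compared) were higher and 400 (13.0%) lower. At 4-fold the counts were 61 and 58, and at 8-fold 11 and 11. The quartiles of the distribution lay at -0.58 and 0.60, and 49.6% of genes were within 1.5-fold of the median gene. Of the genes past 2-fold, 125 higher genes had under 5 FPKM at 2 h and 158 lower genes under 5 at 12 h. They passed the filter only through the library where they were high. This holds for every compared gene past 2-fold printed below with under 5 FPKM in 1 of the controls, also where it is not repeated. Counts of list members given below stand beside the shares of 14.1% higher and 13.0% lower over all compared genes. The split depends on the scaling. Without centring it was 605 higher and 274 lower, with equal upper quartiles 568 and 286, and with equal sums 69 and 1318.

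Chlorophyll synthesis held the lowest medians of all 47 lists with 3 or more compared genes. The lists were matched by symbol, so genes without one are in neither list. All 9 listed genes of the steps from glutamyl-tRNA to protoporphyrin were at least 2-fold lower in the 12 h control. So were all 10 listed genes of the magnesium branch, against 13.0% of compared genes. The medians were -2.30 and -2.42, and no member lay above -1.03. With a trend of the ratio with gene span removed, 9 of 9 and 8 of 10 were lower, with CRD1 at -0.90 and CAO1 at -0.86. Both medians were below 0 under every scaling used.

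The first committed steps were among those with large differences. HEM1, which encodes glutamyl-tRNA reductase, stood at 80.9 FPKM at 2 h and 15.9 at 12 h, a ratio of -2.49. GSA1, which encodes the aminotransferase that yields 5-aminolevulinic acid, stood at 116 and 18.4 FPKM (-2.81). Further down, ALAD1, for 5-aminolevulinic acid dehydratase, stood at 144 and 46.1 FPKM (-1.83). All 3 genes were thus several times lower at 12 h, and ALAD1 the least so. The uroporphyrinogen decarboxylase genes differed among themselves. UPD1 stood at 93.8 and 11.3 FPKM (-3.16), UPD3 at 43.3 and 10.4 (-2.18), and UPD2 at 138 and 53.0 (-1.58). UPD2 was the most abundant of these genes in both libraries and differed the least.

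Coproporphyrinogen oxidase, the next enzyme, is encoded by CPX1 and CPX2. CPX1 (Cre02.g085450, chromosome 2, 1646979 to 1650920, annotation 5.5) stood at 55.8 FPKM at 2 h and 5.41 at 12 h, 10.3-fold lower in FPKM and -3.36 as a centred log2 ratio. CPX2 stood at 8.21 and 4.24 FPKM (-1.03). CPX1 transcripts were the more abundant at 2 h, while the levels of both genes lay close together at 12 h. PPX1, for protoporphyrinogen oxidase, stood at 26.5 and 5.49 FPKM (-2.30).

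Mg-chelatase and its activator lay at the low end of all compared genes. GUN4, which binds porphyrin and stimulates the chelatase, had the lowest ratio of any gene with a symbol, -3.82, with 33.2 FPKM at 2 h and 1.81 at 12 h, 18.4-fold lower in FPKM (Cre05.g246800, chromosome 5, 971441 to 974184). The listed chelatase subunit genes followed it. CHLD stood at 55.68 and 5.496 FPKM (-3.34), CHLI1 at 81.6 and 8.76 (-3.30) and CHLI2 at 72.5 and 13.2 (-2.59).

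The cyclase step has alternative enzymes, CTH1 and CRD1, which are known as counterparts for copper-replete and copper-deficient or oxygen-poor cells. CTH1 stood at 102 and 24.5 FPKM (-2.23) and CRD1 at 68.6 and 36.1 (-1.12). CTH1 was thus the more abundant at 2 h and CRD1 at 12 h. The late steps also lay lower at 12 h. POR1, the light-dependent protochlorophyllide reductase, stood at 141 and 18.0 FPKM (-3.12), CHLG, chlorophyll synthase, at 31.4 and 6.86 (-2.26), and DVR1, divinyl reductase, at 30.5 and 13.3 (-1.35). CAO1, which makes chlorophyll b, stood at 39.87 and 22.04 FPKM (-1.04) and differed the least of the branch. Outside these lists, CGL78, a conserved green-lineage gene linked to the cyclase step, stood at 68.8 and 10.5 FPKM (-2.82).

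**Figure D1:**
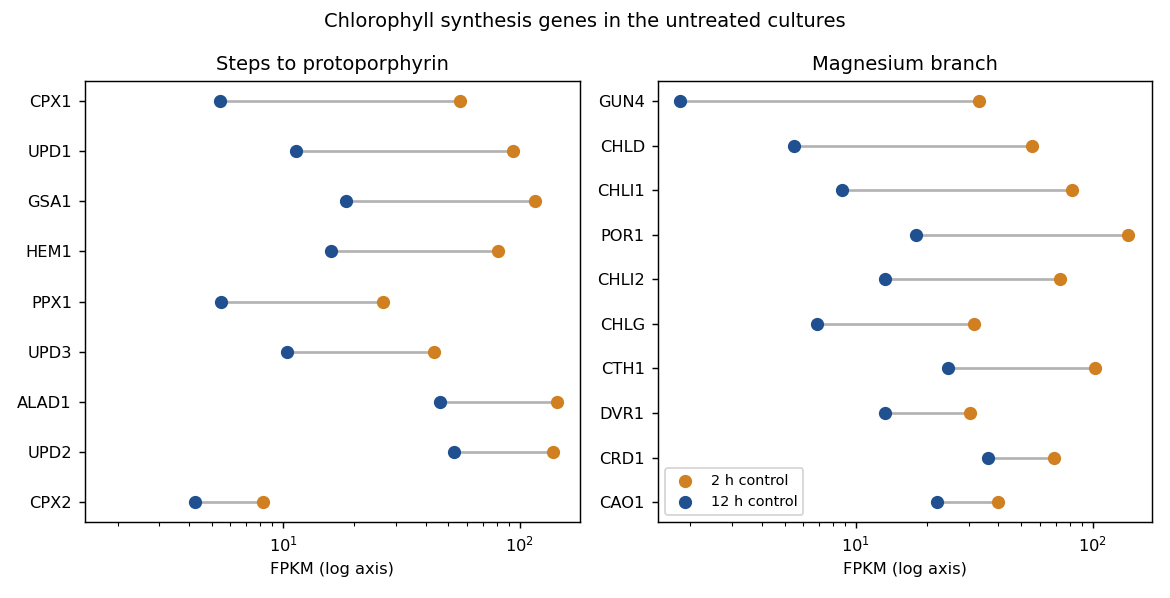
FPKM (log axis) in the 2 h control (orange) and the 12 h control (blue), 1 library each, for the 9 genes of the steps to protoporphyrin (left) and the 10 genes of the magnesium branch (right). Every blue point lies left of its orange point, with the widest gap for GUN4 (33.2 and 1.81 FPKM) and the narrowest for CAO1 (39.87 and 22.04).

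The 2 compared genes of the heme and bilin list lay within 2-fold, with a median of 0.20 (-0.70 with equal sums). HEM2, which is in none of the tetrapyrrole lists and was chosen after its value was seen, had a ratio of -1.29. HMO1, a heme oxygenase gene, stood at 57.7 and 90.1 FPKM (0.42). UPM1, for the enzyme that leads to siroheme, stood at 7.71 and 9.05 FPKM (-0.01).

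Carotenoid and isoprenoid synthesis, which supplies phytol for chlorophyll and the carotenoids of the photosystems, had a median of -1.48, with 8 of 13 compared genes lower and 0 higher. PDS1 and ZDS1, the desaturases of the carotenoid pathway, stood at 15.1 and 2.72 FPKM (-2.33) and at 15.2 and 2.98 (-2.24). Both passed the filter only through the 2 h library. PSY1, phytoene synthase, stood at 18.7 and 6.35 FPKM (-1.64). Genes of the plastid isoprenoid pathway lay in the same range. DXS1, its first enzyme, stood at 49.3 and 14.1 FPKM (-1.95) and HDS1 at 29.5 and 6.90 (-2.16).

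Lipid synthesis genes also lay low, with a median of -0.97, 7 of 15 lower and 1 higher. Among them were BCC1, the biotin carrier of acetyl-CoA carboxylase (64.4 and 23.1 FPKM, -1.65), and KAS2, a ketoacyl synthase (12.4 and 4.11, -1.60). FAD7, a plastid fatty acid desaturase, stood at 33.5 and 11.3 FPKM (-1.71), and BTA1, for the betaine lipid of the alga, at 25.6 and 8.75 (-1.66). SQD1, for sulfolipid, stood at 42.38 and 18.96 FPKM (-1.33). Genes for plastid and for extraplastid lipids were thus among the lower ones.

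Genes that build and service the chloroplast lay below the median gene as well. Plastid ribosomal proteins had a median of -0.62, with 12 of 35 lower and 1 higher. PSRP3, PRPL11 and PRPS5 had the lowest ratios, at -2.11, -1.84 and -1.81, and PRPL11 stood at 67.9 and 21.3 FPKM. The higher gene was PSRP1, at 90.6 and 228 FPKM. It is outside the rule for named genes and was chosen after its values were seen. Of 6 compared genes for plastid transcript maturation and translation, 2 were lower. TAB2, known in Chlamydomonas to promote translation of psaB, stood at 15.1 and 2.82 FPKM (-2.29), and MCA1, which stabilises petA RNA, at 14.95 and 5.786 (-1.45).

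Protein import showed the same side. Of 19 compared genes of organelle import, 7 were lower and 2 higher, with a median of -0.84. TIC110 and TIC20, of the inner envelope translocon, stood at 19.8 and 5.30 FPKM (-1.94) and at 30.0 and 9.28 (-1.81). TOC75, the outer envelope channel, stood at 11.7 and 3.94 FPKM (-1.58), and SCY1, a plastid Sec translocase gene, at 19.5 and 5.17 (-1.95). TIM10, of the mitochondrial intermembrane space, lay on the other side at 115 and 296 FPKM (1.14). When the list was divided after its values were seen, plastid import had a median of -1.51 with 5 of 6 genes lower, and mitochondrial import one of -0.27 with 1 of 12 lower and 2 higher.

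Plastid chaperones and proteases had a median of -0.67, with 7 of 29 lower and 2 higher. ALB3, an insertase of thylakoid membranes, stood at 18.4 and 3.74 FPKM (-2.25). CPN60B1, a plastid chaperonin subunit gene, stood at 16.0 and 7.58 FPKM (-1.20), and CLPC1, a chaperone of the Clp protease, at 42.6 and 20.1 (-1.26). Conserved green-lineage genes with CGL or CPLD symbols, most of them linked to plastids, had 14 of 57 lower and 3 higher, with a median of -0.28.

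**Figure D2:**
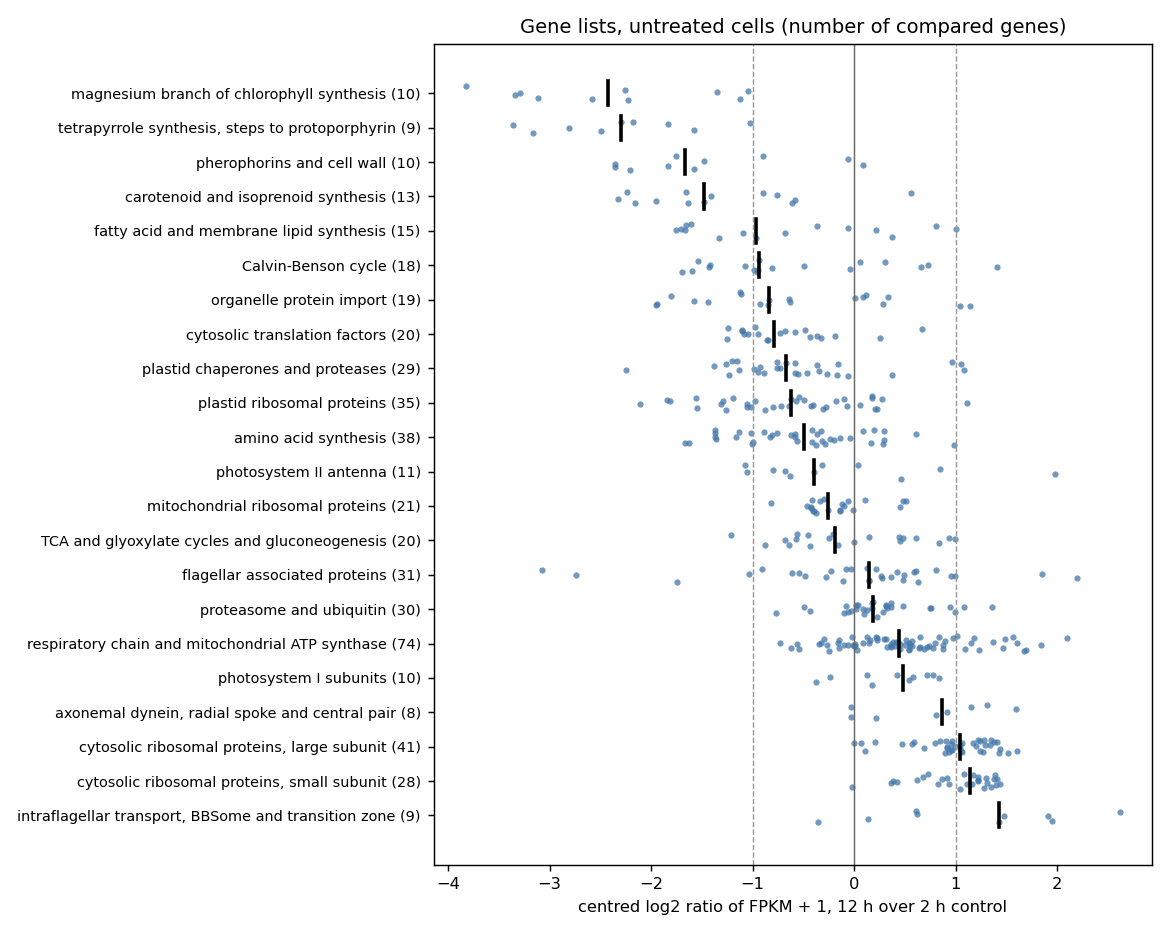
Centred log2 ratio of FPKM + 1 (12 h over 2 h control) for the compared genes of 22 lists, 1 point per gene, with the list median as a black bar, the median compared gene at 0 and 2-fold differences as dashed lines. The 19 chlorophyll synthesis genes all lie beyond the left dashed line, and the cytosolic ribosomal proteins lie mostly near or beyond the right one. Scaled to equal sums, the medians of the photosystem I (-0.51), respiratory (-0.50), proteasome (-0.63) and flagellar associated protein (-0.67) lists fall below 0.

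Subunit genes of the photosynthetic complexes differed from each other in side. Photosystem I subunits had a median of 0.48 with 0 of 10 genes past 2-fold, although this median was -0.09 after a trend with gene span was removed and -0.51 with equal sums. PSAO stood at 1620.0 and 3350.3 FPKM (0.83) and PSAK at 1278 and 2541 (0.78). The cytochrome b6f and plastocyanin genes had a median of 0.73, which was -0.04 without the span trend and -0.27 with equal sums. Among them PETC, the Rieske protein, stood at 655 and 1339.8 FPKM (0.82) and PCY1, plastocyanin, at 3802 and 7153 (0.70). Of 3 plastid ATP synthase genes, ATPD lay past 2-fold at 1543 and 3700.2 FPKM (1.05). Their median was 0.60, -0.04 without the span trend and -0.40 with equal sums.

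Photosystem II subunits had a median of -0.55, with 3 of 9 lower, against 13.0% of all compared genes. The 3 were PSBP6 (38.2 and 12.3 FPKM, -1.78), PSBP4 (41.5 and 21.4, -1.14) and PSBY2 (176 and 94.4, -1.11). The oxygen-evolving subunits PSBQ and PSBP1 lay within 2-fold at -0.55 and -0.47.

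Light-harvesting genes went different ways within 1 family. LHCBM9, an antenna gene known to be induced by nutrient stress, stood at 5.61 and 29.3 FPKM (1.98). LHCBM8 stood at 103 and 56.1 FPKM (-1.07) and LHCBM4 at 441 and 247 (-1.05), while LHCBM1 stood at 3936 and 8233 (0.85). The list had 1 of 11 genes higher, 2 lower and a median of -0.39. Photosystem I antenna genes had a median of 0.04, -0.17 without the span trend and -0.96 with equal sums, with 0 of 9 past 2-fold. Their lowest and highest members were LHCA6 at -0.73 and LHCA7 at 0.52. Reads shared between near-identical copies cannot be separated here, which concerns the LHCBM, RBCS, histone, tubulin, pherophorin and ribosomal protein genes. Of 4 photoprotection genes, 2 were lower, ELI4 (11.9 and 4.10 FPKM, -1.55) and ELI2 (112 and 61.5, -1.08), both of the early light-inducible family.

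Carbon fixation lay lower, with a median of -0.94, 6 of 18 lower and 1 higher. PGK1, phosphoglycerate kinase, stood at 198 and 78.4 FPKM (-1.54), RPI1, ribose phosphate isomerase, at 97.9 and 41.5 (-1.43), and FBA2, an aldolase, at 12.3 and 4.08 (-1.60). The higher gene was RBCS2 with a ratio of 1.41. The other Rubisco small subunit gene, RBCS1, stood at 536 and 313 FPKM, so the listed values of the 2 copies went opposite ways. Reads shared between these 2 copies cannot be separated here. Starch metabolism had a median of -0.39 and 2 of 9 genes lower (0 without the span trend), the starch synthases SSS1 (7.13 and 3.27 FPKM, -1.15) and SSS3 (10.9 and 5.80, -1.02).

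In the carbon-concentrating mechanism, by which the alga raises CO2 around Rubisco, 5 of 18 compared genes were lower and 3 higher. Over all compared genes 13.0% were lower and 14.1% higher. LCIC and LCIB, which form a complex near the pyrenoid, stood at 26.9 and 6.24 FPKM (-2.16) and at 29.9 and 9.28 (-1.80). CAH3, the carbonic anhydrase of the thylakoid lumen, stood at 28.6 and 9.35 FPKM (-1.73). LCI3, named for induction by low CO2, stood far above these in level, at 3777 and 11089 FPKM (1.34). The list median of 0.17 was -0.13 without the span trend and -0.77 with equal sums.

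Respiratory genes lay above the median gene more often than below it. Of 74 compared genes of the respiratory chain and mitochondrial ATP synthase, 14 (18.9%) were higher, near the 14.1% of all compared genes, and 0 were lower. Without the span trend 6 of 74 were higher, against 11.6% of all compared genes. The median was 0.44, with 58 genes above the median gene, and it was 0.21 without the span trend and -0.50 with equal sums. ASA9 and ASA2, subunits of the ATP synthase peculiar to chlorophycean algae, stood at 236 and 1174 FPKM (2.09) and at 349.6 and 1299 (1.68). QCR9 and QCR8 of complex III stood at 477 and 1984 FPKM (1.84) and at 509.7 and 1924 (1.70). ATP15, the epsilon subunit, stood at 309.8 and 1100.45 FPKM (1.61). The 5 genes with the largest ratios thus belonged to the ATP synthase and complex III.

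The TCA and glyoxylate cycles and gluconeogenesis had a median of -0.18, which was 0.12 without the span trend, and 1 of 20 genes past 2-fold. This was PCK1, phosphoenolpyruvate carboxykinase, at 187 and 93.5 FPKM (-1.21). IDH1, an isocitrate dehydrogenase gene, stood at 8.89 and 21.9 FPKM (0.99) and MDH4, a malate dehydrogenase gene, at 222 and 494 (0.93).

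Fermentation genes were mostly too low for the comparison. HYDA1, an iron hydrogenase, stood at 7.94 and 22.7 FPKM (1.19) and was the only one of 6 compared genes past 2-fold. Their median was -0.15, 0.35 without the span trend. Under the filter, all 10 genes had the higher FPKM at 12 h as deposited, 9 relative to the median gene and 8 with equal sums. Of all genes under the filter and above 0 in a control, 45.6%, 38.3% and 16.8% did on these scales. Their median FPKM was 0.516 at 2 h and 3.49 at 12 h. Examples chosen after their values were seen are HYDEF, for hydrogenase assembly (0.439 and 2.99 FPKM), HYDA2, the second hydrogenase (0.0661 and 1.71), and HCP4, a hybrid-cluster protein gene (0.241 and 6.17).

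Histone transcripts stood higher at 12 h almost throughout the family, on every scale used. Of 76 histone genes in the table, 70 had the higher FPKM at 12 h and 1 at 2 h as deposited, and 5 were listed at 0 in both. Relative to the median gene the counts were 68 and 3, and with equal sums 64 and 7. Of all 15776 genes above 0 in a control, 48.4% had the higher FPKM at 12 h as deposited, 40.8% relative to the median gene and 16.6% with equal sums. The copies share sequence, so these are not 76 separate observations. Histone genes listed at 0 numbered 21 at 2 h and 5 at 12 h, while over all genes the numbers were 2474 and 2540. The summed FPKM of the family was 51.6 and 237.

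Only 6 histone genes reached the filter, with a median of 1.11 and 3 of them past 2-fold, and the median was 0.39 without the span trend, 0.95 in the exposed pair and 0.29 with equal sums. HTB38 and HTB37, for H2B, stood at 2.99 and 28.2 FPKM (2.66; chromosome 13, 4043326 to 4044379) and at 6.14 and 38.4 (2.25). HFO39, for H4, stood at 3.03 and 10.6 FPKM (1.31). HTR40 and HTR39, for H3, stood at 2.92 and 7.57 FPKM (0.91) and at 3.67 and 8.62 (0.83). HTV2, a variant histone gene, stood at 18.7 and 36.3 FPKM (0.71). HTB38, HFO39, HTR40 and HTR39 passed the filter only through the 12 h library. The H2B genes thus held the largest ratios, and the variant gene had the highest level at 2 h.

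DNA replication and repair genes were low in level. Of 36 in the table, 33 had the higher FPKM at 12 h and 3 the lower as deposited, 30 and 6 relative to the median gene, and 18 and 18 with equal sums, where 16.6% of all detected genes had the higher value at 12 h. PCN1, the sliding clamp of DNA polymerase, was the only one above the filter and stood at 6.11 and 26.5 FPKM (1.73). The rest, named after their values were seen, lay near or below a few FPKM. The helicase genes MCM2 to MCM7 all had the higher FPKM at 12 h, among them MCM6 (0.182 and 1.67 FPKM), MCM2 (0.310 and 1.64) and MCM5, the most abundant (1.05 and 3.61). ORC4, of the origin recognition complex, stood at 0.156 and 2.88 FPKM, CDC6, which loads the helicase, at 0.0392 and 1.08, and RIR2, of ribonucleotide reductase, at 0.403 and 2.44. The 3 lower genes were PHR2, a photolyase gene (1.37 and 0.433 FPKM), RAD50, of double-strand break repair (1.17 and 0.532), and TOP1, a topoisomerase gene (1.32 and 0.939).

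Cell cycle genes were more mixed, with 35 of 49 higher in FPKM, 13 lower and 1 listed at 0 in both controls. Relative to the median gene 30 were higher and 18 lower, and with equal sums 15 and 33, beside the shares of 40.8% and 16.6% higher over all detected genes. CKS1, a partner of cyclin-dependent kinases, stood at 2.39 and 11.8 FPKM (1.70) and was the only one of 5 compared genes past 2-fold. CDKG1, which in Chlamydomonas couples cell size to division number, stood at 3.24 and 7.41 FPKM (0.77). The other compared genes lay within 2-fold, DRP1 at -0.54, DRP2 at -0.36 and CYCM1 at -0.14, the list median. Among genes named after their values were seen, CDKB1, the mitotic kinase, stood at 0.328 and 1.87 FPKM. The plastid division genes FTSZ2, MIND1, MINE1 and MINE2 stood at 0.427 and 7.66, 0.902 and 6.70, 0.483 and 6.47, and 0.288 and 6.27 FPKM. These plastid division genes were under the filter by their mean, and their FPKM were all several times higher at 12 h. E2F1, a transcription factor gene of the cycle, had the lower value at 12 h (2.94 and 1.45 FPKM).

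**Figure D3:**
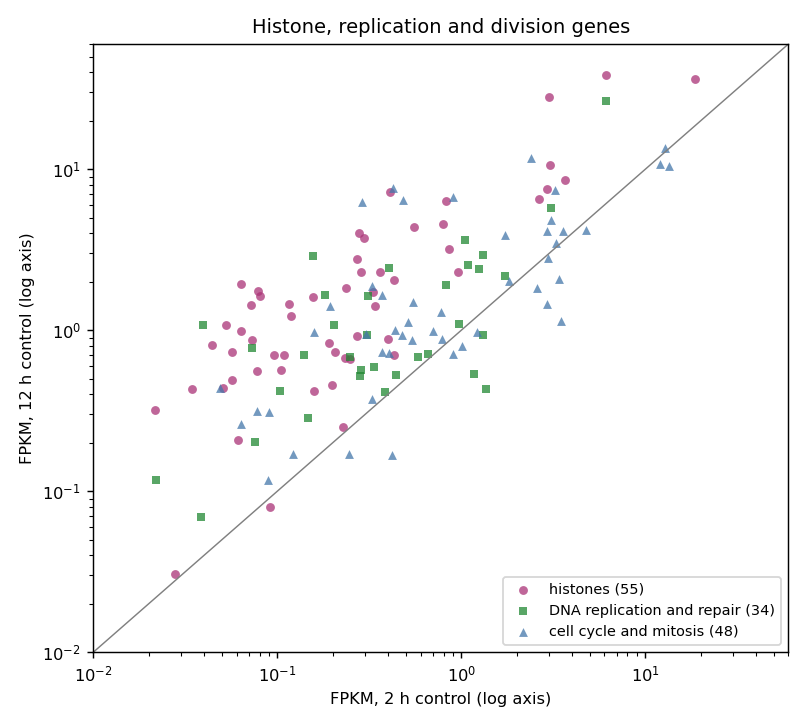
FPKM in the 12 h control against FPKM in the 2 h control (both axes log, 1 library each) for genes above 0 in both: 55 histone, 34 DNA replication and repair and 48 cell cycle genes. The line marks equal FPKM as deposited, and most histone and replication genes lie above it (with equal sums 18 of 36 replication genes would), with PCN1 at 6.11 and 26.5 FPKM and HTB37 at 6.14 and 38.4.

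Genes of the cytosolic ribosome were higher together. Of the large subunit, 21 of 41 were higher and 0 lower, and of the small subunit 17 of 28 and 0, against 14.1% of all compared genes. The medians were 1.04 and 1.14, 0.75 and 0.67 without the span trend, and 0.04 and 0.14 with equal sums. Without the span trend the higher genes numbered 10 of 41 and 7 of 28, against 11.6% of all compared genes. RPL37 stood at 12500.3 and 37773 FPKM (1.38), RPL7ae at 1972 and 6957 (1.60), and RPS30 at 8369.9 and 26394 (1.44). These genes take most of the FPKM sum, so their ratios and the sums are not separate measurements.

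The factors that load and run the ribosome went the other way. Cytosolic translation factors had a median of -0.79, with 6 of 20 lower (3 without the span trend) and 0 higher. Among these were EIF5 (10.3 and 4.50 FPKM, -1.25), EIF3E (15.8 and 7.26, -1.24), EIF3D (20.6 and 10.7, -1.10) and EIF4E, the cap-binding protein (26.6 and 13.9, -1.10). Mitochondrial ribosomal proteins had a median of -0.25 with 0 of 21 past 2-fold, from MRPL54 at -0.82 to MRPL7 at 0.51. By their medians, the cytosolic ribosome thus lay above the median gene, and the plastid and mitochondrial ribosomes below it.

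Transport genes of the cilium, the motile organelle of the alga, were among the highest ratios. Of 9 compared genes for intraflagellar transport, the BBSome and the transition zone, 5 were higher (3 without the span trend) and 0 lower, with a median of 1.43 (0.56 without the span trend, 0.47 with equal sums). MKS1, of the transition zone, stood at 1.05 and 13.6 FPKM (2.62). IFT27 and IFT25, which form a pair within the transport complex, stood at 9.18 and 44.6 FPKM (1.95) and at 4.68 and 23.8 (1.91). IFT20 stood at 13.9 and 45.5 FPKM (1.43) and FLA14, a dynein light chain, at 112 and 362 (1.47). MKS1 and IFT25 passed the filter only through the 12 h library. Over all 46 genes of the list, including low ones, 23 had the higher and 23 the lower FPKM at 12 h, so the compared members differ from the list as a whole.

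Axonemal dynein, radial spoke and central pair genes had a median of 0.87 (0.04 with equal sums), with 3 of 8 higher: IDA4 (4.965 and 19.96 FPKM, 1.60), ODA14 (6.18 and 19.7, 1.31) and RSP9, of the radial spoke (7.36 and 20.5, 1.15). Over all 47 genes, 22 were higher and 25 lower in FPKM. Flagellar associated proteins, named from a proteome of the organelle, ranged from -3.07 to 2.20, with a median of 0.15 (-0.67 with equal sums). Of 31 compared, 2 were higher and 4 lower, against 14.1% and 13.0% of all compared genes. FAP291 stood at 3.19 and 21.3 FPKM (2.20) and FAP15 at 1.41 and 9.09 (1.85). At the other end FAP269 stood at 37.7 and 4.35 FPKM (-3.07), FAP212 at 19.4 and 2.53 (-2.74), FAP102 at 52.0 and 17.4 (-1.74) and FAP292 at 7.51 and 3.83 (-1.03). FAP291, FAP15 and IDA4 passed the filter only through the 12 h library, and FAP269, FAP212 and FAP292 only through the 2 h library. Tubulins lay within 2-fold, with a median of 0.29 (-0.65 with equal sums), and TUB2 stood at 32.0 and 51.9 FPKM.

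Most compared cell wall genes were lower at 12 h. Of 10 compared genes, mostly pherophorins, which are hydroxyproline-rich glycoproteins of the extracellular matrix, 7 were lower and 0 higher, and the median was -1.67. Without the filter on low values the list median was -0.19. PHC22 stood at 11.2 and 1.77 FPKM (-2.36), PHC1 at 15.6 and 2.76 (-2.35), PHC21 at 8.67 and 1.43 (-2.21) and PHC3 at 119.6 and 40.4 (-1.76). GAS28, a hydroxyproline-rich glycoprotein gene known from gametogenesis, stood at 17.7 and 5.08 FPKM (-1.84), and VSP1, a wall protein gene of vegetative cells, at 7.76 and 2.42 (-1.57). PHC22, PHC1, PHC21 and VSP1 passed the filter only through the 2 h library. Over all detected cell wall genes 14 were higher and 19 lower in FPKM, and among the 23 under the filter 12 and 11.

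Apart from GAS28 and ZYS4, the gamete and zygote genes were under the filter. GSP1, a homeodomain gene of plus gametes, stood at 6.03 and 1.34 FPKM, HAP2, the gamete fusogen, at 0.0342 and 0.299, and SAG1, the plus agglutinin, at 0.227 and 0.189. ZYS4, a zygote gene, stood at 9.86 and 21.7 FPKM.

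Nutrient genes gave few differences past 2-fold. In nitrogen assimilation, GSF1, the ferredoxin-dependent glutamate synthase, stood at 22.1 and 4.88 FPKM (-2.19). GDH2, a glutamate dehydrogenase gene, stood at 5.27 and 17.1 FPKM (1.32), and GSN1, the NADH-dependent glutamate synthase, at 5.595 and 11.82 (0.74). Enzymes that use different electron donors for the same reaction thus stood on opposite sides of the median gene. Glutamine synthetase genes lay within 2-fold, and the list of 6 had a median of -0.29.

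In iron uptake, FEA1, an iron-binding protein of the periplasm, stood at 11.4 and 2.32 FPKM (-2.12) and FOX1, the multicopper ferroxidase, at 11.0 and 3.72 (-1.56). FTR1, the permease that works with FOX1, was under the filter and chosen after its values were seen, at 5.75 and 1.29 FPKM. These 3 uptake genes were lower at 12 h, while FER1, ferritin, stood at 37.4 and 47.0 FPKM (0.11). FEA1 and FOX1 passed the filter only through the 2 h library. The median over 6 iron and manganese genes was -0.32, with 2 lower. Over all detected genes of this list, 10 had the higher and 11 the lower FPKM at 12 h as deposited. Among the 15 under the filter, 7 were higher and 8 lower. FOX2 and IRT2 were among those higher at 12 h, so the 3 lower uptake genes do not stand for the list.

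Copper genes gave 1 of 4 lower, the regulator CRR1 (24.7 and 13.7 FPKM, -1.02), and the copper deficiency marker CYC6 was listed at 0 and at 0.236 FPKM. Sulfur genes gave 1 of 12 higher, the transporter gene SLT3 (5.01 and 15.4 FPKM, 1.23). The median of that list was 0.03, and -0.94 with equal sums. Zinc transport gave ZIP3 at 4.48 and 12.9 FPKM (1.13), 1 of 3 genes past 2-fold, with a median of 0.68 (-0.13 with equal sums). Phosphate genes had 0 of 6 past 2-fold, with a median of -0.48 and PTA3 lowest at -0.96.

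Of 6 compared clock and light response genes, 2 were lower and 0 higher, with a median of -0.62. CRB3 stood at 10.2 and 2.45 FPKM (-1.92), PHT1 at 19.9 and 9.57 (-1.20) and CRB1 at 8.96 and 5.80 (-0.77). COP3, a channelrhodopsin gene, stood at 12.1 and 10.4 FPKM (-0.42) and CON1 at 41.5 and 34.5 (-0.47). COP2, an opsin-related gene, was the most abundant and stood at 343 and 468 FPKM (0.23).

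Stress and redox genes were mixed. Peroxiredoxin, thioredoxin, glutathione and antioxidant genes had a median of 0.05 (-0.86 with equal sums). Of 35, 5 were higher and 2 lower (4 and 6 without the span trend). Over all compared genes 14.1% were higher and 13.0% lower, so the higher share was near that of all genes. PRX6, a peroxiredoxin gene, had the second lowest ratio of any gene with a symbol, -3.54, at 50.9 and 4.18 FPKM. GRX6, a glutaredoxin gene, stood at 13.7 and 4.11 FPKM (-1.74). On the higher side, GST2, a glutathione transferase gene, stood at 13.01 and 49.14 FPKM (1.62), NTR2, a thioredoxin reductase gene, at 3.121 and 12.99 (1.55), and the glutathione peroxidase genes GPX1 and GPX5 at 4.95 and 16.8 (1.36) and 156 and 440.0 (1.28).

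Heat shock genes and general chaperones had a median of -0.28, with 4 of 37 lower and 3 higher (2 and 2 without the span trend). Over all compared genes 13.0% were lower and 14.1% higher. HSP22E, a small heat shock gene, stood at 6.66 and 23.7 FPKM (1.48) and CYN23, a cyclophilin gene, at 6.41 and 23.2 (1.49). HSP70C, HSP90B and HSP70B lay lower at -1.36, -1.28 and -1.26. Proteasome and ubiquitin genes had a median of 0.19 (-0.63 with equal sums), with 2 of 30 higher, POA4 of the core (8.68 and 27.8 FPKM, 1.36) and RPN12 of the regulatory particle (15.7 and 40.2, 1.09).

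Amino acid synthesis had a median of -0.49, with 10 of 38 lower (6 without the span trend) and 0 higher. Examples are SHK7 (13.6 and 4.37 FPKM, -1.66), ANS2 (9.38 and 2.91, -1.62) and THS1 (30.9 and 13.4, -1.37). Vitamin and cofactor synthesis had 2 of 8 lower and a median of -0.46. THI4, of thiamine synthesis, stood at 432 and 221 FPKM (-1.18), and BIO2, biotin synthase, at 6.96 and 3.37 (-1.08). The secretory pathway had a median of -0.04 with 2 of 37 higher, against 14.1% of all compared genes. They were SEC61G, of the translocon of the endoplasmic reticulum (115 and 389 FPKM, 1.54), and VPS46 (26.8 and 90.8, 1.51). RNA polymerase and splicing genes had a median of -0.14, with PRP8, a core spliceosome gene, at 8.996 and 4.024 FPKM (-1.21) and LSM2 at 29.2 and 77.1 (1.16).

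At the ends of the ranking with a symbol, 9 of the 15 lowest genes were in the 2 chlorophyll synthesis lists. The others were PRX6, FAP269, FDX3, CGL78, FAP212 and PHC22. Of the 15 lowest, GUN4, PRX6, FAP269, FDX3, FAP212 and PHC22 passed the filter only through the 2 h library. The 15 highest genes included 5 of the cilia lists, MKS1, IFT27, IFT25, FAP291 and FAP15. Of the 15 highest, HBV1, HTB38, MKS1, TEF13, FAP291, IFT25, FAP15 and MOT24 passed the filter only through the 12 h library. In order, the 15 were HBV1 (2.97 and 34.0 FPKM, 2.92), HTB38, MKS1, TEF13 (2.86 and 25.0, 2.53), GAP1, a glyceraldehyde phosphate dehydrogenase gene (16.7 and 104, 2.36), HTB37, FAP291, ASA9, LHCBM9, IFT27, IFT25, FAP15, QCR9, PCN1 and MOT24 (4.89 and 21.7, 1.73).

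Among genes without a symbol, the highest ratio belonged to Cre07.g343050 (chromosome 7, 4424365 to 4425551), at 2.44 and 88.4 FPKM (4.49), and the next to Cre03.g176833, at 3.37 and 73.8 (3.88). The lowest were Cre07.g325500, at 49.9 and 4.89 FPKM (-3.33), and Cre16.g663900, at 95.9 and 10.4 (-3.30). Cre14.g634279 was listed at 0 at 2 h, while at 12 h it held 38828 FPKM, or 3.40% of the sum, and no fold is given for it. Genes without a symbol were counted as higher in 16.1% and lower in 10.9% of cases, and genes with one in 10.8% and 16.3%.

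Of 731 neighbouring pairs with both genes compared, 23 were both higher, 11 both lower and 19 opposite. These counts were not set against those of pairs that are not neighbours. CHLI1 (chromosome 6, 8333800 to 8337913) lay beside FDX3, a ferredoxin gene (8338012 to 8339406), which stood at 16.0 and 1.56 FPKM (-2.95). Other pairs were HSP22F with HSP22E, both higher, and HSP70C with FOX1, both lower. Reads from overlapping ends of neighbours cannot be told apart without strand.

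Ratios moved with the span listed for the gene. This is the span of the listed locus, which some genes share, as UPD3 and PRP19 do (6856 bp), so it can exceed the gene. In the shortest eighth of the compared genes, with spans of 357 to 1770 bp, introns included, 32.4% were higher and 3.89% lower, with a median of 0.55. In the longest eighth, 6137 to 43950 bp, 5.45% were higher and 27.0% lower, with a median of -0.51. After a smooth trend with span was removed, 357 genes were higher and 340 lower, and 297 and 279 of these were called before. When the genes were split into 4 equal bins by mean FPKM, 24.4% were higher in the top bin and 6.87% in the bottom bin. The part that span and level have in the differences was not tested. The magnesium branch, with a median of -2.33 without the trend, and the steps to protoporphyrin, with -1.84, lay closer to 0 by different amounts, from -2.42 and -2.30. The histone, cytosolic ribosome and cilia transport medians, given above, moved towards 0 as well.

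**Figure D4:**
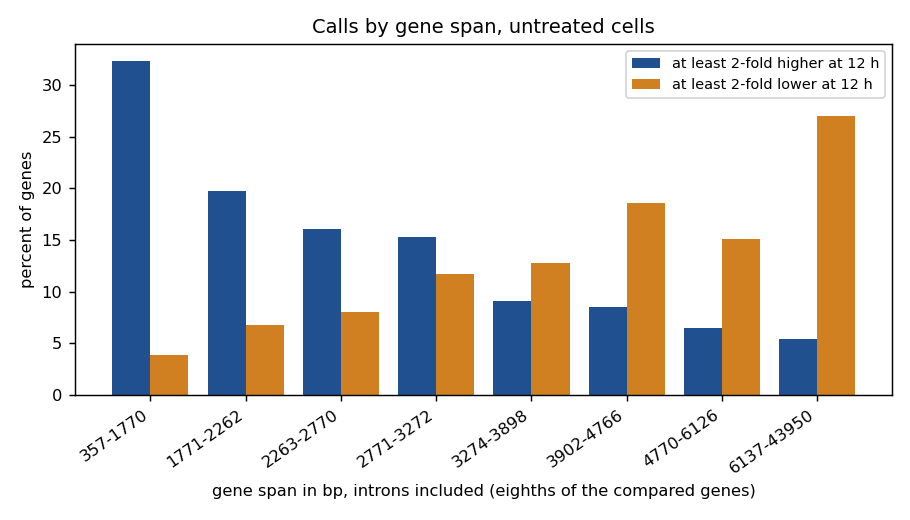
Percent of genes at least 2-fold higher (blue) and lower (orange) in the 12 h control, by eighths of the 3084 compared genes ordered by gene span in bp, introns included. The higher share goes from 32.4% in the shortest eighth to 5.45% in the longest, and the lower share from 3.89% to 27.0%.

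The exposed cultures gave a pair of libraries that shares none with the controls, so the same genes were read in it, with its own median as the centre. There 372 genes (12.1%) were higher and 369 (12.0%) lower at 12 h. Of the higher genes, 255 were in both sets, 58.5% of the control set and 68.5% of the exposed set. Of the lower genes, 265 were in both, 66.2% of the control set and 71.8% of the exposed set. The sign was shared by 433 of the 436 higher and 390 of the 400 lower genes. These genes were chosen for large ratios in the controls, and the share over all compared genes was not counted. Across genes, which are not independent replicates, Pearson's r between the pairs was 0.83 and Spearman's rho 0.86.

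Chlorophyll synthesis kept its side with AgNPs, with medians of -1.90 and -2.21. GUN4 stood at 36.9 and 2.89 FPKM at 2 h and 12 h, and CPX1 at 76.4 and 3.23. The respiratory list had a median of 0.57, the carotenoid list one of -1.51, and the cilia transport list one of 1.73.

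Some lists differed between the pairs. The cytosolic ribosome medians of 1.04 and 1.14 in the controls were 0.24 and 0.25 with AgNPs, with 0 genes past 2-fold. RPL37 had 12500.3 and 37773 FPKM in the controls, as above, and 33486 and 38675 in the 2 h and 12 h AgNP libraries. On the deposited scale the 2 h control was the lowest of the 4 libraries. As a share of each library's sum, RPL37 took 2.54% and 3.30% untreated and 2.67% and 2.32% exposed. For this gene the 2 h control was thus not the lowest on this scale. All 70 cytosolic ribosomal protein genes together took 55.3% and 63.5% untreated and 61.7% and 61.5% exposed. For the group the 2 h control was thus the lowest on this scale too. The cell wall median of -1.67 was 0.31 with AgNPs. PHC22, at 11.2 and 1.77 FPKM in the controls, had 0.178 and 0.650 in the 2 h and 12 h AgNP libraries, so here the 2 h control was highest. The axonemal list, with a median of 0.87 in the controls, had 1.97 with AgNPs, where all 8 genes were higher. None of these differences between pairs was tested.

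**Figure D5:**
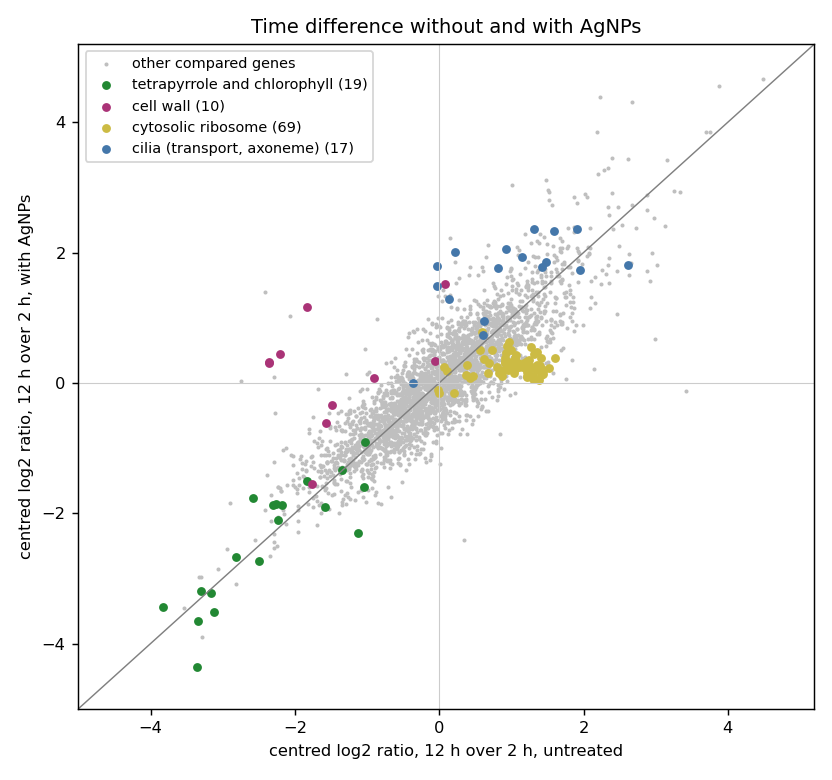
Centred log2 ratio of FPKM + 1, 12 h over 2 h, with AgNPs against the same ratio in untreated cells, 1 point per compared gene except the gene at 0 in the 2 h control, with 4 groups of lists in colour and the line of equal ratios. Chlorophyll synthesis genes lie low on both axes, cytosolic ribosomal proteins lie right of the line (medians 1.04 and 1.14 untreated, 0.24 and 0.25 with AgNPs), and 7 of the 10 cell wall genes lie beyond -1 on the horizontal axis against 1 on the vertical. With equal sums the untreated ribosome medians are 0.04 and 0.14.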

How the data were processed

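Per the labels' protocols, Trizol served for extraction and an Illumina mRNA-Seq kit for library construction. The deposited values are FPKM per gene in 4 tables, per the file headers. The submitters' processing notes name Cuffdiff, with no version. What is not given in the sources used here is the aligner, the genome build and the scaling between libraries. Identifiers carry the suffix of annotation 5.5, and coordinates are printed 1-based.

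From the deposited FPKM, log2 ratios with a pseudocount of 1 were taken for genes with a mean of at least 5, which understates the change of low genes, and centred on the median gene. FPKM hold no read counts, so no counting interval or floor is given. Genes under the filter are given by FPKM alone. Replicates are absent, and the labels do not say whether the libraries came from separate cultures. Of 51 symbol lists, 47 had at least 3 compared members. The heme and bilin, DNA replication, and gamete and zygote lists had fewer and are given by their members, and the aminoacyl-tRNA synthetase list matched no symbol. Members and lists were chosen with earlier results of these data known, and some symbols of other function were removed from lists after they had been matched. The rule names the 15 highest and 15 lowest genes with a symbol, the highest and lowest 2 without, every compared chlorophyll, histone and clock gene, and up to 6 genes of the largest absolute ratio per other list. Alternatives were pseudocounts, filters, scalings, thresholds and subtraction of a lowess curve fitted on gene span (fraction 0.5). The code was tested on simulated data. Software was matplotlib 3.10.9, statsmodels 0.14.6, pandas 2.3.3 and numpy 2.4.6 under Python 3.11.15.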

Additional observations from a re-analysis of the deposited data

Results flagged for a closer look

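Among the genes named above, 6 were at least 2-fold lower in the 12 h control but lay above 0 in the exposed pair. The difference between the pairs was not tested, since each holds 1 library per time. FAP212, a flagellar associated protein gene, had a centred log2 ratio of -2.74 in the controls and 0.03 with AgNPs, where FPKM at 2 h and 12 h were 19.4 and 2.53 untreated and 1.11 and 1.41 exposed. The pherophorin genes PHC22, PHC1 and PHC21 had ratios of -2.36, -2.35 and -2.21 untreated and 0.33, 0.30 and 0.45 exposed. GAS28 had -1.84 and 1.16, where the FPKM were 17.7 and 5.08 untreated and 0.293 and 2.23 exposed. FAP292 had -1.03 and 0.53, where they were 7.51 and 3.83 untreated and 2.68 and 4.92 exposed. In each of the 6 genes the 2 h control was the highest of the 4 libraries and the 2 h AgNP library the lowest.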

How the results depend on the processing

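The counts of 436 higher and 400 lower genes moved by over 1.5 times under some settings. With equal FPKM sums they were 69 and 1318, with a mean of at least 20 FPKM 138 and 183, at 1.5-fold 787 and 768, and at 4-fold 61 and 58. Without a filter 1052 genes were higher, and with a pseudocount of 5 the lower genes numbered 208. The remaining settings stayed within 1.5 times, with 483 and 456 for a pseudocount of 0.1, 357 and 340 without the span trend, 436 and 406 with the filter over all 4 libraries, and 435 and 400 without the gene at 0. Both chlorophyll lists, with medians of -3.31 to -1.81, and the carotenoid list, with -2.26 to -0.84, lay below 0 under every setting, and the cytosolic ribosome, histone and cilia transport lists above it, down to 0.04 for the large subunit with equal sums. No paired analysis was possible because each group holds 1 library and the labels give no replicate numbers. The number of reads and the error of a single library are unknown, so differences of a few FPKM in low genes are the least certain.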

Other observations

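Some gene groups were listed only after their values had been seen. Ferredoxins, which carry electrons from photosystem I to plastid enzymes, gave 3 of 5 lower, against 13.0% of all compared genes. Over all 6 ferredoxin genes, including the 1 under the filter, 3 had the higher and 3 the lower FPKM at 12 h as deposited. FDX6 stood at 12.4 and 2.12 FPKM in the 2 h and 12 h controls (-2.32) and FDX4 at 65.9 and 18.1 (-2.02), beside FDX3 above. FDX3 and FDX6 passed the filter only through the 2 h library. PETF, the main photosynthetic ferredoxin, stood at 2099 and 3310.1 FPKM (0.44; with equal sums the sign is reversed), far above the others in level. FDX5 stood at 11.0 and 16.8 FPKM (0.35). Of 6 compared genes of iron-sulfur cluster assembly 3 were lower. SUF2, SUF3 and SUF4, of the plastid system, stood at 8.93 and 2.72, 20.5 and 7.11, and 13.2 and 5.73 FPKM, all at least 2-fold lower. ISC1 and ISC2, of the mitochondrial system, lay within 2-fold at 20.3 and 34.0 and at 4.55 and 8.15 FPKM (0.50 and 0.51, but -0.45 and -0.30 with equal sums), and NFU2 at 6.17 and 4.09 (-0.71).

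Glycolysis had 3 of 9 genes lower, the pyruvate kinase genes PYK5 (22.2 and 5.90 FPKM, -1.97), PYK1 (26.6 and 10.2, -1.52) and PYK2 (14.4 and 7.08, -1.15). GAP1 was the higher gene at 2.36. The vacuolar proton ATPase, a complex that acidifies vacuoles, had 2 of 13 genes lower and 0 higher, against 13.0% and 14.1% of compared genes. The lower ones were ATPvA2 (14.1 and 4.93 FPKM, -1.56) and ATPvC (13.7 and 6.66, -1.16). Prefoldin (5 genes), nucleolar RNA modification (6) and glycine cleavage (3) had no gene past 2-fold, with medians of 0.14 (-0.69 with equal sums), -0.41 and -0.12.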
